A study of Mus musculus with 4 samples.

Results

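The genes described here encode factors of nonsense-mediated mRNA decay (NMD), the surveillance pathway that destroys mRNAs on which translation stops early. They are Upf1, Upf2, Upf3a, Upf3b, Smg1, Smg5, Smg6, Smg8 and Smg9, 9 of the 22138 genes of the deposited expression table. The rule for the members is a list of names and uses no measured value, but the list was drawn up with earlier results of these data known. By symbol 7 were found, and by Ensembl identifier 2 were found under older symbols, Smg8 as 1200011M11Rik and Smg9 as 1500002O20Rik.

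The 4 RNA-seq libraries were made from TT2 cells, a female line of mouse embryonic stem cells (strain C57BL/6xCBA). All cells were grown without feeders in serum with LIF, a cytokine that keeps such cells undifferentiated. Control libraries (n = 2) came from cells given control siRNA, and the others (n = 2) from cells given siRNA against Hnrnpk. Hnrnpk encodes hnRNP K, a protein that binds RNA and DNA, in particular stretches rich in cytosine. In both groups a first transfection with 100 nM siRNA was followed after 24 hours by another with 50 nM. RNA was taken about 72 hours after the second transfection. The question was how the transcriptome responds to loss of hnRNP K, which the series title places in gene silencing by SETDB1. The design text calls the replicates biological. It does not say that they were separate cultures, so p-values measure the spread between these libraries only. All libraries came from 1 cell line, and the sources used here do not give the siRNA sequence.

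During NMD, the helicase UPF1 joins a terminating ribosome together with the release factors, and UPF2 and UPF3 link it to an exon junction complex that splicing left downstream. The kinase SMG1, held in check by SMG8 and SMG9, then phosphorylates UPF1. Phosphorylated UPF1 recruits SMG6, which cuts the mRNA near the stop codon, and SMG5, which helps to bring deadenylation and decapping enzymes. Several NMD factor mRNAs are themselves known targets of the pathway, a feedback described in mammalian cells. In embryonic stem cells NMD is known to affect the balance between self-renewal and differentiation.

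The targeted transcript was lower in both libraries labelled Hnrnpk siRNA. Hnrnpk was at 236 and 226 RPKM (reads scaled to transcript length and library size) under control siRNA and at 68.0 and 70.5 RPKM after Hnrnpk siRNA, a log2 change of -1.73. The steps between low RPKM values corresponded to an estimated 109500000 to 124200000 counted units per library. Only 13 to 15 genes matched the estimated total of each library. Whether a unit was a read or a pair could not be settled. Among markers of pluripotent cells, 1 of 6 was called higher, Nanog (means 197, then 348 RPKM), and 1 lower, Sox2 (213, then 146 RPKM). The summed level of the 6, which hides these opposite changes, was 1386 to 1491 RPKM in the control libraries and 1480 to 1528 RPKM after Hnrnpk siRNA. All 4 tested primitive endoderm markers were called higher (summed 3.61 and 3.62 RPKM in control libraries, 24.0 and 25.0 RPKM after Hnrnpk siRNA). So were all 4 tested trophectoderm markers (29.9 and 35.4 RPKM, then 63.1 and 67.8 RPKM). Of these, Pdgfra averaged 0.170 RPKM in control and 0.898 RPKM in Hnrnpk siRNA libraries. It reached the mean of 0.5 RPKM needed for testing only through the latter. Krt8 (means 12.3, then 22.4 RPKM) and Krt18 (17.4, then 32.0 RPKM) made up most of the trophectoderm sum. Elf5, too low to be tested, was lower (0.107, then 0.0656 RPKM). The other untested markers of these lists, Cdx2, Sox17 and Foxa2, were higher. Fibroblast markers summed to 8.003 and 9.46 RPKM in control libraries and to 4.05 and 4.23 RPKM after Hnrnpk siRNA, and both of the 2 that could be tested were called lower. None of these 24 markers was at 0 in all libraries. The primitive endoderm, trophectoderm and fibroblast sums moved with the groups, and their part in the results was not tested, while the pluripotent sums overlapped between the groups. In such bulk RNA, fewer cells of a type and less RNA per cell cannot be told apart.

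After Hnrnpk siRNA, 5 of the 9 NMD factor transcripts were higher and 0 were called lower. Smg5 and Upf3b rose most, by 44.4% and 45.1% of their control means, followed by Upf2 (33.3%), Smg6 (28.7%) and Smg8 (19.1%). Upf1, Upf3a, Smg1 and Smg9 did not pass the test, and of these Upf1 alone was lower at an unadjusted p under 0.05 in limma. A gene was called at an adjusted p under 0.05 in limma's moderated two-sided test on log2(RPKM + 0.5), adjusted by Benjamini-Hochberg over the 12486 genes that averaged 0.5 RPKM or more. All 9 factors were tested. Calls were frequent in this comparison, since 67.2% of all genes tested were called, 32.2% higher and 35.0% lower. Against that background, 55.6% of the factors were called, all of them higher. The groups did not overlap for 6 of the 9 factors (66.7%) and for 84.7% of all genes tested.

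The changes of the factors were moderate in size. Their median log2 change was 0.25, with a range from -0.15 to 0.52, beside a median of -0.015 over all genes tested. In absolute terms, the median log2 change was 0.25 for the factors and 0.32 for all genes tested, and 29.6% of genes tested changed by more than Smg5. None of the factors reached 2-fold, a size that 499 genes passed upward and 564 downward. The standard errors of the factors' log2 changes lay between 0.0600 and 0.0733, below the median of 0.0803 over all genes tested. The smallest factor signal in any library, that of Smg9, corresponded to about 2176 counted units, given the length of an annotated coding transcript. The annotation behind the deposited values is not given. If units were independent, the counting error alone would be about 2.14% of that value. It would be higher if mates of a pair were counted separately. The other 8 factors had more units per library, up to 34840 as the lowest of the 4 libraries for Upf1.

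**Figure D1:**
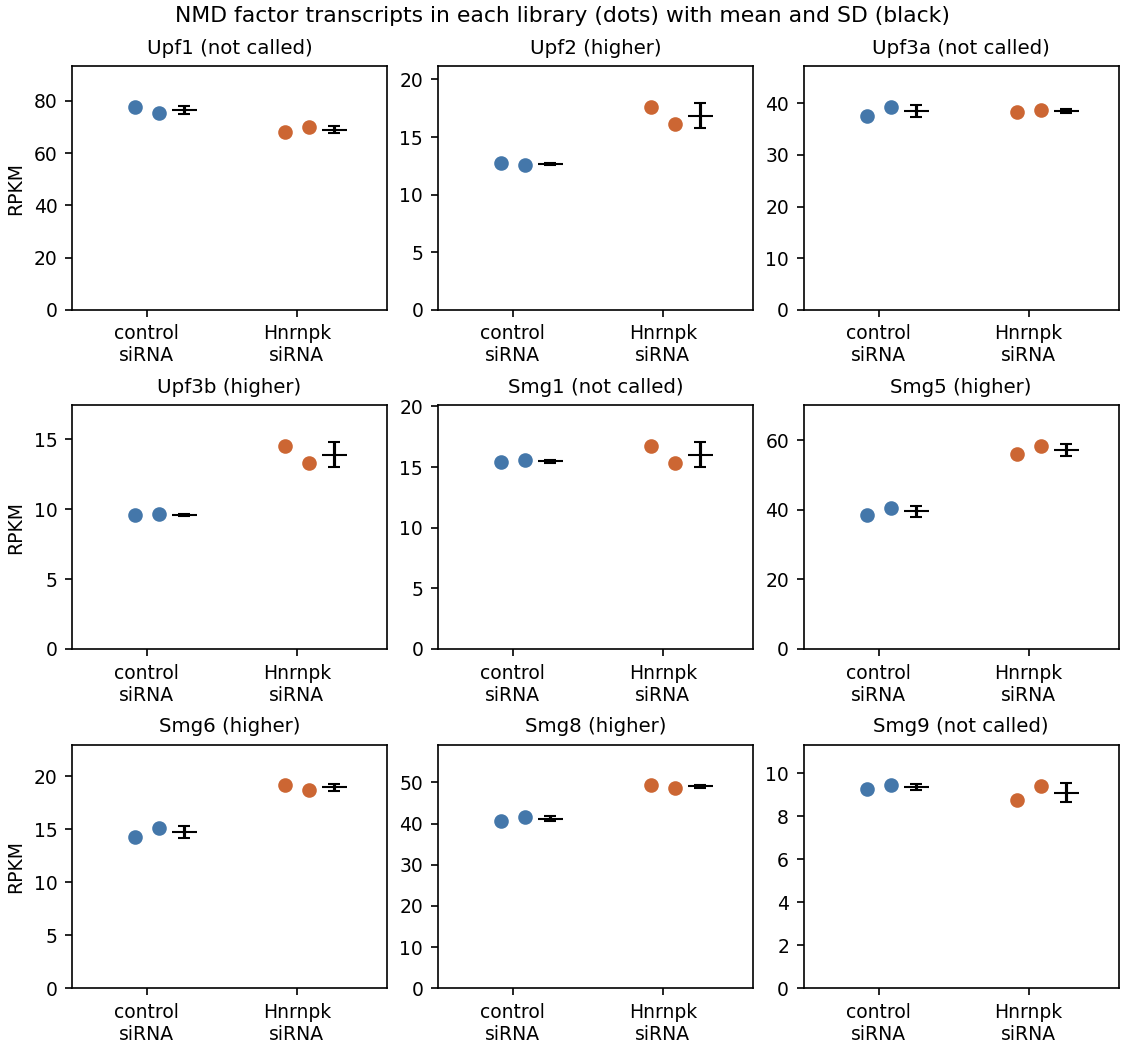
RPKM of the 9 NMD factors (vertical axes, each from 0) in the 2 control siRNA libraries (blue dots) and the 2 Hnrnpk siRNA libraries (orange dots), with the mean and SD of each group in black. The groups are apart for Upf1, Upf2, Upf3b, Smg5, Smg6 and Smg8 and overlap for Upf3a, Smg1 and Smg9.

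The promoters of the factors are shown before their single values, since hnRNP K binds DNA as well as RNA. Coordinates are GRCm38 throughout, from GENCODE M21 for genes and RefSeq (GRCm38.p6) for promoters, matched by gene. They are not positions in mm9, the build named in the submitters' processing notes. All 9 factors had a promoter entry, and the 250 bases before each start were searched on both strands. The 3 printed here belong to the factors with the highest called changes, Smg5, Upf3b and Upf2, and are written 5′ to 3′ in the direction of the gene. Capitals mark CCCTCC or its reverse complement GGAGGG, a cytosine-rich run of the kind that hnRNP K is known to bind, and TCGCGAGA or its reverse complement TCTCGCGA, a palindrome-like element found in promoters of many housekeeping genes.
Smg5, chr3:88336010-88336259, plus strand: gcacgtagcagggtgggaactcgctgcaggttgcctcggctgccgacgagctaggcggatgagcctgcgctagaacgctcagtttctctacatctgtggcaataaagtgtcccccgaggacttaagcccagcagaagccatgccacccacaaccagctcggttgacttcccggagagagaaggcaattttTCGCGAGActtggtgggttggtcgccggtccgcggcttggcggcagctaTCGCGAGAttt
Upf3b, chrX:37110323-37110572, minus strand: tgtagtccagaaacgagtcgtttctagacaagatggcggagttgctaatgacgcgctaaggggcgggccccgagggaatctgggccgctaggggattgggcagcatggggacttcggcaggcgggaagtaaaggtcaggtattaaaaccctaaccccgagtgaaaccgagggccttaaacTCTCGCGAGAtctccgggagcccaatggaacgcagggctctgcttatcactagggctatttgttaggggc
Upf2, chr2:5951219-5951468, plus strand: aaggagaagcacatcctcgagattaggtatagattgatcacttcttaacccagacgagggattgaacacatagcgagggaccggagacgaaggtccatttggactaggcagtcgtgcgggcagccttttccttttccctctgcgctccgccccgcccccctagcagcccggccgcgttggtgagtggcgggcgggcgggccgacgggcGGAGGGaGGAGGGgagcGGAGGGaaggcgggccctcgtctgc

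The cytosine-rich run was present 3 times in the Upf2 window and absent from those of Smg5 and Upf3b. It occurred in the windows of the other 7 factors, called and not called, and in 44.9% of the 9606 promoters of tested genes. Over all genes it occurred in 42.9% of the promoters of genes called higher, 47.0% of those called lower and 44.6% of those not called. TCGCGAGA occurred at 2 places in the Smg5 window. In the Upf3b window it occurred at 1 place that reads on both strands. No other factor had it, and 2.03% of the promoters of tested genes did. This element was added to the search after the sequences and the changes had been seen, so its presence in these promoters is a description. Of the promoters of genes called higher 2.85% held it (89 of 3119), of those called lower 0.981% (33 of 3365), and of those not called 2.34% (73 of 3122). GGGCGG, the core of the Sp1 box, was in 7 of 9 windows (61.2% of promoters of tested genes), CCAAT in 4 of 9 (37.1%), and the cyclic AMP response element TGACGTCA in 0 of 9 (2.70%). A match shows only that these letters are present.

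Among the UPF factors, the helicase and its partners did not move together. Upf1 lies on chromosome 8 from 70331525 to 70353278 (minus strand, 24 exons) and encodes the RNA helicase at the centre of the pathway. By RPKM it was the most abundant factor, with 77.8 and 75.3 RPKM in the control libraries and 68.2 and 69.9 RPKM after Hnrnpk siRNA. Both Hnrnpk siRNA libraries lay below both control libraries, at a mean of 69.0 ± 1.25 RPKM against 76.5 ± 1.71 RPKM (SD, n = 2 each). Its log2 change was -0.15 (SE 0.0607, 95% interval -0.28 to -0.012), and limma's adjusted p of 0.0535 missed the threshold. This value depended on the processing: over the alternatives its log2 change ran from -0.19, where quantile normalization gave a call (limma's adjusted p = 0.0156), to 0.0052 where each library's trend on GC content was removed.

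Upf2, on chromosome 2 from 5951469 to 6056703 (plus strand, 22 exons), encodes the adaptor that bridges UPF1 and UPF3. Its transcript was at 12.7 and 12.6 RPKM under control siRNA and at 17.6 and 16.1 RPKM after Hnrnpk siRNA, so that the groups were apart. The mean went from 12.7 ± 0.110 to 16.9 ± 1.07 RPKM (SD, n = 2 each), a log2 change of 0.40 (SE 0.0715, limma's adjusted p = 0.000800). The promoter of this gene is the one above with 3 cytosine-rich runs.

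The paralogs Upf3a and Upf3b, which encode proteins that contact the exon junction complex, differed in their response. Upf3b, on chromosome X from 37091678 to 37110322 (minus strand, 10 exons), encodes the form known as the main activator of NMD. It was at 9.54 and 9.61 RPKM under control siRNA and at 14.5 and 13.3 RPKM after Hnrnpk siRNA. Its Hnrnpk siRNA libraries were both above the controls, and the mean went from 9.58 ± 0.0503 to 13.9 ± 0.870 RPKM (SD, n = 2 each). The log2 change was 0.51 (SE 0.0732, limma's adjusted p = 0.000193). Upf3a, on chromosome 8 from 13785615 to 13799193 (plus strand, 9 exons), encodes a form with weaker activity in many assays. Its RPKM values were 37.6 and 39.3 in the control libraries and 38.2 and 38.7 after Hnrnpk siRNA, and the groups overlapped. The log2 change of Upf3a was 0.00027 (SE 0.0617, 95% interval -0.14 to 0.14, limma's adjusted p = 0.997).

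Of the SMG1 kinase complex, only the transcript of the inhibitor subunit Smg8 passed the test. Smg1, on chromosome 7 from 118131308 to 118243670 (minus strand, 63 exons), encodes the kinase that phosphorylates UPF1. Its control libraries held 15.4 and 15.5 RPKM and its Hnrnpk siRNA libraries 16.7 and 15.3 RPKM, with overlap. The log2 change was 0.050 (SE 0.0705, 95% interval -0.11 to 0.21, limma's adjusted p = 0.552). Smg8, on chromosome 11 from 87077732 to 87086774 (minus strand, 4 exons), was at 40.7 and 41.6 RPKM under control siRNA and at 49.3 and 48.7 RPKM after Hnrnpk siRNA. This was the smallest of the 5 called rises, with means of 41.1 ± 0.590 and 49.0 ± 0.447 RPKM (SD, n = 2 each) and no overlap. Its log2 change was 0.25 (SE 0.0600, limma's adjusted p = 0.00457).

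Smg9 encodes the subunit that joins SMG8 to the kinase, and lies on chromosome 7 from 24399619 to 24422778 (plus strand, 14 exons). By RPKM it was the least abundant factor, with 9.26 and 9.44 RPKM in the control libraries and 8.77 and 9.39 RPKM after Hnrnpk siRNA. The groups overlapped, and the log2 change was -0.041 (SE 0.0733, 95% interval -0.21 to 0.12, limma's adjusted p = 0.639). Removal of the GC trend turned the direction to 0.18 and gave a call (limma's adjusted p = 0.0455). Smg9 has the highest GC content of the factors, 60.3% over its longest annotated transcript, and Upf1 the next, 57.9%.

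Smg5 and Smg6, whose proteins act on phosphorylated UPF1, were both higher. Smg5, on chromosome 3 from 88336260 to 88362338 (plus strand, 22 exons), encodes an adaptor for deadenylation and for the phosphatase that resets UPF1. It was at 38.5 and 40.6 RPKM under control siRNA and at 56.0 and 58.4 RPKM after Hnrnpk siRNA, with a clear gap between the groups. The mean went from 39.6 ± 1.48 to 57.2 ± 1.72 RPKM (SD, n = 2 each), a log2 change of 0.52 (SE 0.0634, limma's adjusted p = 6.54e-05) and the highest of the 9. Its promoter holds the pair of TCGCGAGA elements shown above. Smg6, on chromosome 11 from 74925823 to 75164448 (plus strand, 19 exons), encodes the endonuclease. Its control libraries held 14.3 and 15.1 RPKM and its Hnrnpk siRNA libraries 19.2 and 18.7 RPKM, without overlap. The mean of Smg6 went from 14.7 ± 0.592 to 18.95 ± 0.297 RPKM (SD, n = 2 each), a log2 change of 0.35 (SE 0.0670, limma's adjusted p = 0.00115).

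**Figure D2:**
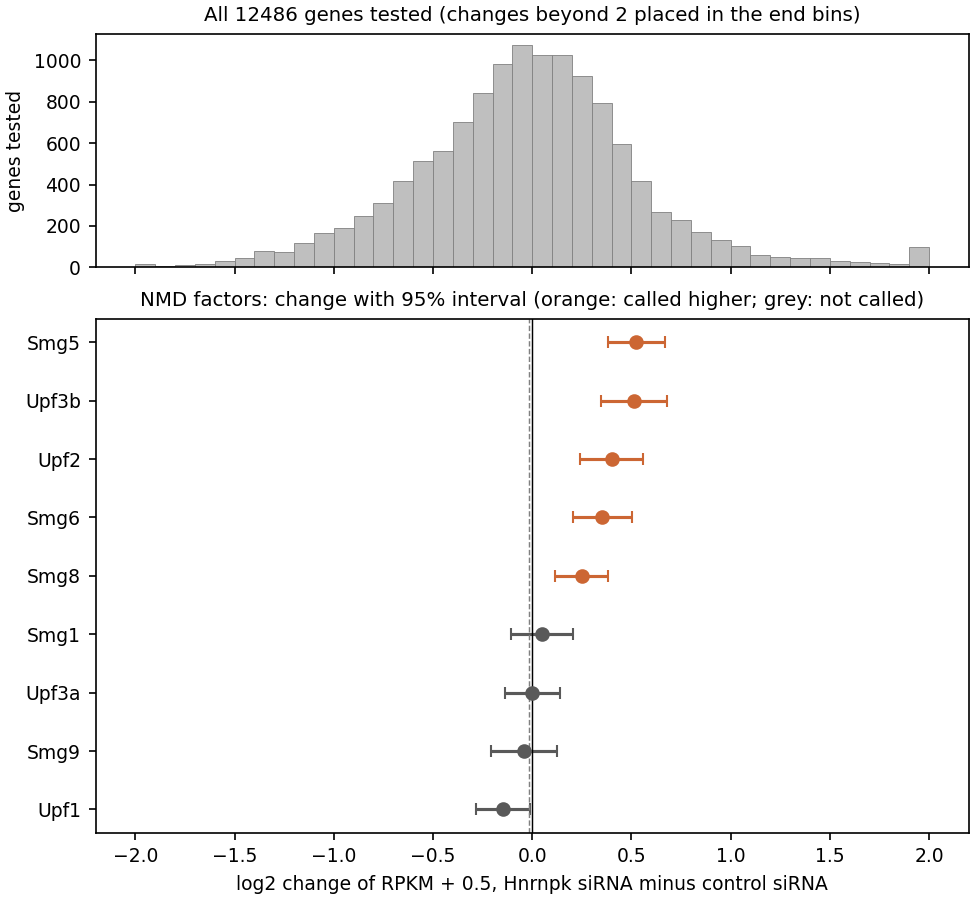
Log2 change of RPKM + 0.5, Hnrnpk siRNA minus control siRNA, for all 12486 genes tested (upper panel, number of genes per bin, changes beyond 2 placed in the end bins) and for the 9 NMD factors (lower panel, point and 95% interval, orange where called higher and grey where not called). The dashed line is the median of all genes tested, -0.015, and the 5 called factors lie between 0.25 and 0.52.

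Over the 13 alternative settings of the processing, Upf2, Upf3b, Smg5, Smg6 and Smg8 were called higher in each. Their lowest log2 changes over the settings were 0.34 for Upf2, 0.45 for Upf3b, 0.47 for Smg5, 0.31 for Smg6 and 0.20 for Smg8. These settings included leaving out each library in turn.

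RPKM is scaled to length, so the factors can be set in order of level as far as the gene lengths used, which are not given, allow. For Upf3a, a coding transcript in GENCODE has 2057 bases and all annotated exons together 5865. Close ranks could change with other lengths, which the spread between libraries does not show. In the control libraries the order by mean RPKM was Upf1, Smg8, Smg5, Upf3a, Smg1, Smg6, Upf2, Upf3b and Smg9, and of these neighbours only the libraries of Smg5 and Upf3a overlapped. After Hnrnpk siRNA the order was Upf1, Smg5, Smg8, Upf3a, Smg6, Upf2, Smg1, Upf3b and Smg9, and only Upf2 and Smg1 overlapped. Smg5 thus stood above Smg8 in both Hnrnpk siRNA libraries and below it in both control libraries. Smg1 stood above Smg6 and Upf2 in the control libraries only. By mean level over the 4 libraries, Upf1 exceeded 91.4% of genes tested and Smg9 49.5%. The median gene tested had a mean of 9.38 RPKM.

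The proportions of the factors shifted accordingly. The levels of the ratios, shares and sums below also depend on the gene lengths used, which are not given. Upf3a was 3.94 and 4.09 times as abundant as Upf3b in the control libraries and 2.63 and 2.92 times after Hnrnpk siRNA, which made the mean ratio 0.691 times that of the control (4.02 ± 0.103 against 2.78 ± 0.198, SD, n = 2 each). The ratio of Upf1 to Upf2 went from 6.11 and 5.99 to 3.87 and 4.34, and on the log2 scale this change was -0.55, or -0.34 with the GC trend removed. Upf1 made up 30.4% and 29.1% of the summed RPKM of the 9 factors in the control libraries and 23.6% and 24.2% after Hnrnpk siRNA. With 2 libraries against 2, an exact two-sided permutation test cannot give a p below 0.333, the value for each of these ratios.

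Within the SMG1 complex, Smg8 was 2.65 and 2.67 times as abundant as Smg1 in the control libraries and 2.95 and 3.17 times after Hnrnpk siRNA. Smg8 was 4.40 times as abundant as Smg9 in both control libraries and 5.62 and 5.18 times after Hnrnpk siRNA, a log2 change of 0.29 that was 0.11 with the GC trend removed. Smg5 over Smg6 stood at 2.69 and 2.68 in the control libraries and at 2.92 and 3.12 after Hnrnpk siRNA. Each of these ratios was higher in both Hnrnpk siRNA libraries than in both control libraries.

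Summed over the 9 factors, the level was 256 and 259 RPKM in the control libraries and 288 and 289 RPKM after Hnrnpk siRNA, 1.12 times the control. The 5 SMG transcripts summed to 118 and 122 RPKM in the control libraries and to 149.95 and 151 RPKM after Hnrnpk siRNA, 1.25 times the control. The 4 UPF transcripts summed to 138 and 137 RPKM in the control libraries and to 138.5 and 138 RPKM after Hnrnpk siRNA, where the lower Upf1 value, which was not called, stood against the rises of Upf2 and Upf3b. The difference between the UPF and SMG sums was not tested.

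**Figure D3:**
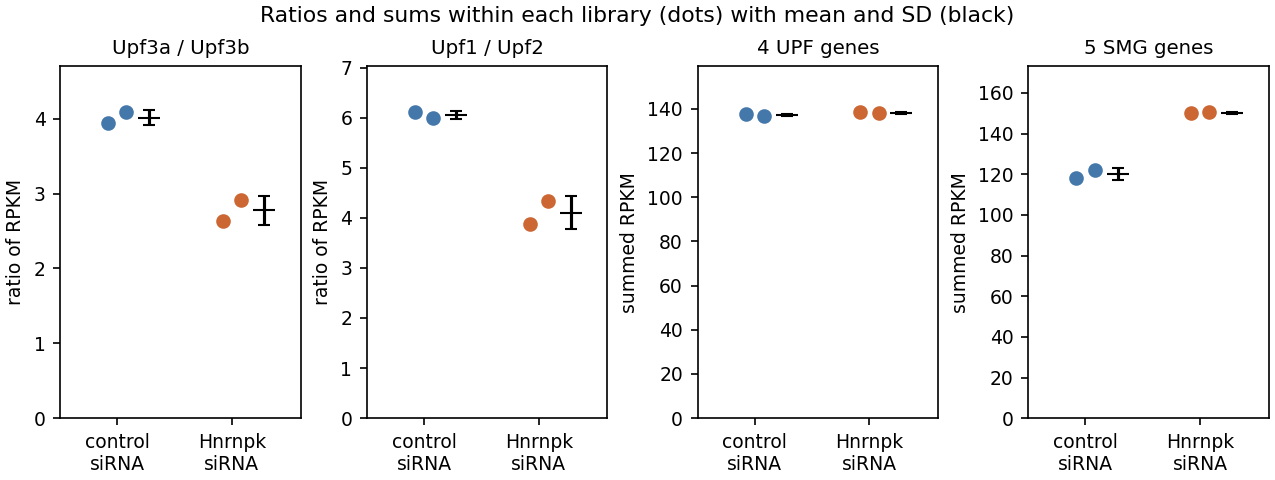
Ratios of RPKM (Upf3a over Upf3b, Upf1 over Upf2) and summed RPKM of the 4 UPF and the 5 SMG genes (vertical axes from 0) in each library, blue for control siRNA and orange for Hnrnpk siRNA, with mean and SD in black. Both ratios are lower and the SMG sum is higher in both Hnrnpk siRNA libraries, while the UPF sums lie within 136 to 139 RPKM.

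The factor genes are long and rich in exons. Lengths, exons and stop codons were read from a single coding transcript per gene, chosen by GENCODE tags first and by coding length next. The chosen transcripts of the factors had a median of 4448 bases and 19 exons, beside 2939 bases and 9 exons over 12096 coding genes tested. They ranged from 2057 bases for Upf3a to 15557 bases for Smg1. The coding part had a median of 3054 bases against 1371. Their 3′ UTRs, a length known to make some transcripts sensitive to NMD, had a median of 958 bases against 960. Among the factors called higher these were 1261 bases for Upf2, 834 for Upf3b, 1230 for Smg5, 1498 for Smg6 and 221 for Smg8, and among the others 958 for Upf1, 719 for Upf3a, 4233 for Smg1 and 400 for Smg9. The called and uncalled factors thus overlapped in this length.

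None of the 9 chosen transcripts had an exon junction more than 50 bases after the stop codon, the classical mark of an NMD target. Of tested coding genes, 0.339% had one in the transcript chosen in the same way. Only transcripts of GENCODE's protein-coding class could be chosen, which left out those of its class nonsense-mediated decay. These shares therefore cannot show whether the genes also give rise to such transcripts. An ATG in the 5′ UTR was present in 4 of 9, beside 50.6% of tested coding genes. GENCODE lists a transcript of the class nonsense-mediated decay for Smg1, Smg5 and Smg6, 3 of 9, and for 28.1% of tested coding genes. Over all genes with such a transcript 31.6% were called higher and 35.7% lower (n = 3404), and over those without 32.2% and 35.4% (n = 8692). The gene-level RPKM values do not separate these transcripts from the others of a gene.

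Some reads could be shared with other genes. Over at least 100 bases at 95% identity, 316 bases of Upf3a (15.4% of its chosen coding transcript) matched transcripts of 12 other genes. For Smg6, 251 bases (4.29%) matched Gm12333 and Srr. Both of these genes lie antisense over Smg6, with 117 (Gm12333) and 126 (Srr) shared exonic bases. This match and the overlap given below are therefore not separate. The other 7 factors had no such match. The exons of Upf1 overlap those of an antisense gene, listed as Lass1, over 68 bases (1.47% of exonic length). Lass1 fell from 7.94 ± 1.04 to 2.89 ± 0.228 RPKM (SD, n = 2 each). Smg6 overlaps the antisense gene Srr over 126 bases (1.49%), and Srr rose from 0.684 ± 0.106 to 1.88 ± 0.0857 RPKM (SD, n = 2 each). The sources used here do not say whether counting used strand, so reads in these overlaps cannot be told apart.

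The genes whose pattern over the 4 libraries was most like that of Smg5, the factor with the highest absolute change, were Tiprl, Med7 and Rpe. Likeness was the Euclidean distance between log2(RPKM + 0.5) profiles less their own mean, over the 6036 other genes that averaged 10 RPKM or more. The distances were 0.0102 for Tiprl, 0.0272 for Med7 and 0.0303 for Rpe. Tiprl, a regulator of protein phosphatase 2A family enzymes, went from 43.3 and 45.5 RPKM in the control libraries to 63.0 and 66.0 RPKM. Med7, a Mediator subunit, went from 21.2 and 21.95 to 31.1 and 32.3 RPKM. Rpe, an enzyme of the pentose phosphate pathway, went from 21.7 and 22.6 to 32.0 and 32.6 RPKM. With 4 libraries in 2 groups, such a distance mostly compares the size of the change.

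Other genes of the pathway, and transcripts reported as its targets, were read from lists by role, which together held 105 tested genes. In all 71 of them (67.6%) were called, 34 higher and 37 lower, beside 67.2% of all genes tested. These counts include the 16 tested target transcripts, of which 12 were called higher and 1 lower. In the exon junction complex and its partners, 4 of 10 were higher and 3 lower. Pym1, which takes the complex apart, rose from 68.8 to 103 RPKM (log2 change 0.58), and Pnn rose from 48.7 to 63.9 RPKM (0.39). Rnps1, a partner linked to NMD activation, fell from 97.4 to 67.0 RPKM (-0.54), and the core gene Rbm8a fell from 76.4 to 63.2 RPKM (-0.27). The core helicase Eif4a3 was at 269 RPKM in control and 244 RPKM in Hnrnpk siRNA cells and did not pass the test (limma's adjusted p = 0.0875). Casc3, another core gene, rose from 51.4 to 64.1 RPKM (0.32) and was called higher. The core paralogs Magoh (0.18) and Magohb (-0.039) were not called.

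At the terminating ribosome, 3 of 7 release factor and poly(A)-binding genes were called higher and 2 lower. The release factor gene Etf1 was at 167 and 170 RPKM in the group means, with no call (log2 change 0.034), while that of its GTPase partner, Gspt1, fell from 74.9 to 61.4 RPKM (-0.28). Pabpc1, whose protein is known to oppose NMD from the poly(A) tail, rose from 599 to 827 RPKM (0.46), a call that quantile normalization removed (0.13, limma's adjusted p = 0.124). Without Hnrnpk siRNA replicate 2, 1 of the 7 was called higher and 1 lower, and without any other single library 1 was called lower. Among 10 other NMD proteins, 4 were higher and 2 lower. Among those called higher, Pnrc1 rose from 25.6 to 34.65 RPKM (0.44) and Ncbp2 from 41.5 to 48.6 RPKM (0.23). Neither of these calls held in every alternative setting. Mov10, a helicase that associates with UPF1, fell from 42.5 to 23.7 RPKM (-0.83). Without Hnrnpk siRNA replicate 2, 2 were called higher and 1 lower, and 1 was called lower without control siRNA replicate 1 or Hnrnpk siRNA replicate 1.

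Smg1, which did not pass the test, has relatives among kinase genes that did. Of 12 genes for the family of phosphatidylinositol 3-kinase-related kinases and their chaperones, without Smg1, 9 were called lower and 0 higher by limma (0 higher also at an unadjusted p under 0.05), with a median log2 change of -0.28. Over all genes tested 35.0% were called lower and 32.2% higher. The DNA damage kinase gene Atr fell from 12.02 to 3.88 RPKM (-1.52), Prkdc from 5.58 to 3.30 RPKM (-0.68), and the chaperone gene Pih1d1 from 32.9 to 20.4 RPKM (-0.68). Without either Hnrnpk siRNA replicate in turn 6 were called lower, and 1 was called higher without control siRNA replicate 2. The difference between Smg1 and these genes was not tested.

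The decay enzymes downstream of the factors were mixed. In decapping and 5′ to 3′ decay, 3 of 16 were higher and 5 lower, among them the exonuclease Xrn1, which fell from 8.53 to 5.80 RPKM (-0.52). Dcp2, the decapping enzyme, rose from 14.0 to 18.1 RPKM (0.36), and its cofactor Dcp1b fell from 1.67 to 0.842 RPKM (-0.69). In deadenylation, 6 of 18 were higher and 6 lower. The CCR4-NOT scaffold Cnot1 fell from 144 to 104 RPKM (-0.47), Cnot3 by 0.49 and Pan2 by 0.50 on the log2 scale, while the antiproliferative adaptor genes Btg2 and Btg1 rose by 1.62 and 0.93. In the RNA exosome and Ski complex, 2 of 16 were higher and 9 lower, with a median log2 change of -0.17. Dis3l, a cytoplasmic exosome nuclease, fell from 9.10 to 4.24 RPKM (-1.02), and the core subunits Exosc7 and Exosc5 by 0.68 and 0.63 on the log2 scale. Leaving out control siRNA replicate 2 or Hnrnpk siRNA replicate 1 brought the 9 lower calls to 5. Without either Hnrnpk siRNA replicate in turn 1 gene of this list was called higher, and without control siRNA replicate 1 there was 0.

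Of 25 transcripts reported elsewhere as NMD targets, 17 were matched in the table and 16 tested. Called higher were 12 of 16 (75.0%, beside 32.2% of all genes tested), and 1 was lower. Their median log2 change was 0.33. The stress-response genes Ddit3 and Gadd45b rose most, by 3.03 and 2.14. Ddit3 was at 4.82 and 11.2 RPKM under control siRNA and at 60.0 and 68.1 RPKM after Hnrnpk siRNA, and Gadd45b at 8.83 and 10.05 RPKM and then at 41.6 and 44.7 RPKM. Ptbp2, a splicing regulator, rose from 11.6 to 17.9 RPKM (0.60). Tbl2 was the single gene called lower, from 13.3 to 10.4 RPKM (-0.34), and without Hnrnpk siRNA replicate 2 there were 2 lower calls. This list was chosen with earlier results of these data known. Gene-level RPKM values do not separate a target transcript from the others of its gene, and NMD activity was not measured.

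**Figure D4:**
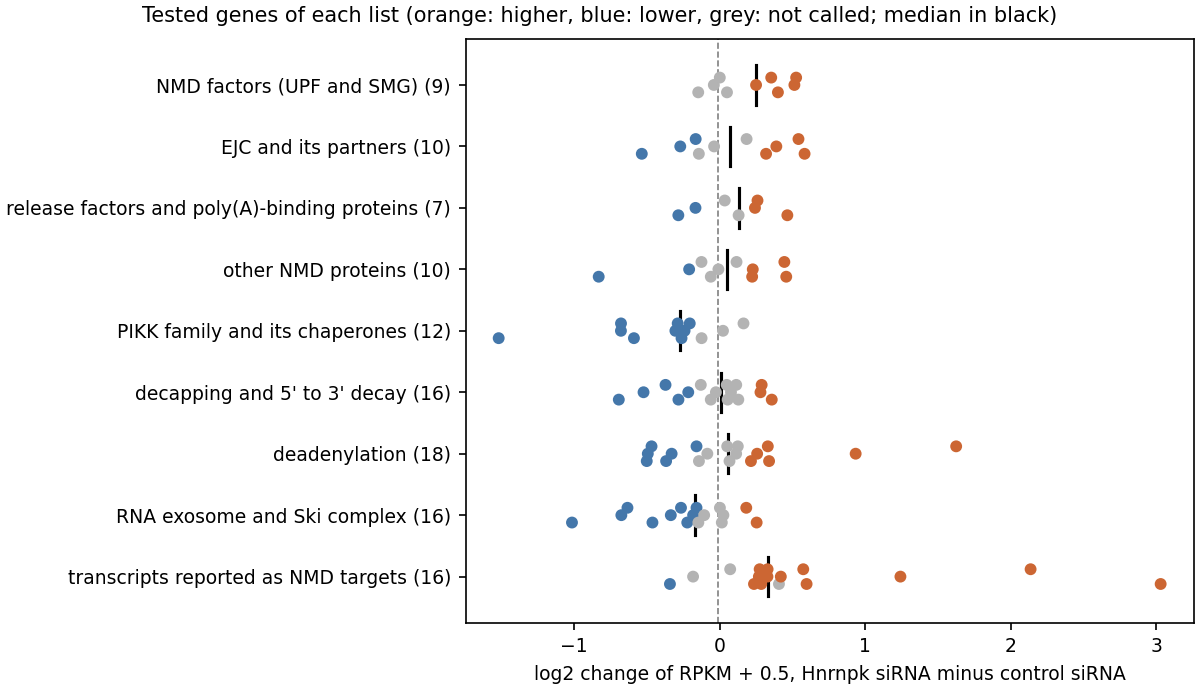
Log2 change of RPKM + 0.5 (Hnrnpk siRNA minus control siRNA) of each tested gene of the NMD factors and of 8 lists of related genes, with the number tested in brackets, orange for called higher, blue for called lower, grey for not called, and the list's median as a black bar. The dashed line is the median of all genes tested, -0.015, and the medians run from -0.28 for the kinase family list to 0.33 for the reported target transcripts.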

How the data were processed

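Gene-level RPKM values were used as the authors deposited them, in 1 table with a column per library. Per the submitters' processing notes, BWA, SAMtools and the build mm9 were used; the sources used here do not give the counting tool or annotation. Per the labels, the RNA was both depleted of ribosomal RNA and selected for poly(A). Of the gene identifiers, 20551 (92.8%) were found in GENCODE M21. Log2(RPKM + 0.5) was compared with limma 3.58.1 (mean-variance trend) in R 4.3.3 for genes averaging 0.5 RPKM or more, with Benjamini-Hochberg adjustment over all of them; fold changes on this scale understate the change of low genes. Intervals are at 95%. Sequence matches used BLAST 2.17.0, and exact permutation tests used scipy 1.17.1. The members and lists were chosen with earlier results of these data known. Named genes were Hnrnpk, the members, and up to 3 called higher and 3 lower per list by lowest adjusted p (not all are reported here). Eif4a3, Etf1, Gspt1 and Xrn1 were also named, as were the 3 genes nearest the member with the highest absolute change. Lass1 and Srr were named for their overlap, and Casc3, Magoh and Magohb as further core genes of the exon junction complex. The 13 alternatives were other added values, filters, scalings, GC correction, a replicate block, no trend and each library left out.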

Additional observations from a re-analysis of the deposited data

How the results depend on the processing

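The count of called genes ran from 6792 to 9660 over the 13 alternatives, and 5 or 6 of the 9 factors were called in each. The sixth was Upf1, lower, without a filter (limma's adjusted p = 0.0479), with quantile normalization (-0.19, adjusted p = 0.0156) and with the replicate block (adjusted p = 0.0448), and Smg9, higher, with the GC trend removed. Uncalled factors changed direction: Upf1 (0.0052) and Smg9 (0.18) with the GC trend removed, and Upf3a (-0.043) with quantile normalization. Leaving out 1 library at a time gave log2 changes from -0.031 to 0.031 for Upf3a, from -0.011 to 0.11 for Smg1 and from -0.088 to 0.0062 for Smg9. For Etf1 the values were -0.089 with quantile normalization, -0.0051 with the GC trend removed and from -0.067 to 0.14 with 1 library left out. The cause was not tested. The numbers on the libraries do not pair them by the labels, and the correlation of same-numbered libraries' deviations was 0.0267; the replicate block called 8622 genes and 6 factors. Where 1 library is left out, the lone library of its group is assumed to vary like the other group. Of 208 list counts under the alternatives, 25 moved by over 1.5 times. Estimated counting error was up to 2.14% for the factors if counted units were independent, and 2 libraries per group limit the precision.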
